A study of Mus musculus with 6 samples.

Results

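The genes described here encode the proteins of the mitochondrial ribosome. They were taken as every row of the deposited gene table whose symbol is Mrpl or Mrps followed by a number and at most 1 letter, which gave 78 of 56691 rows: 49 Mrpl genes, named for the large subunit, and 29 Mrps genes, named for the small subunit. A further 6 rows with such a symbol and a pseudogene suffix fell outside the rule. Expression was measured by RNA sequencing in mouse macrophages of the line the labels spell RAW246.7, wild type by label, all pretreated with LPS (bacterial lipopolysaccharide, an inflammatory stimulus) and then kept for 24 hours on a hydrogel. MSA-DA was compared with MSA-ZW, 2 hydrogels that the series sets against each other for how much protein they take up and for the fibrin that forms on them, with 3 libraries on each. No library from cells off a hydrogel or without LPS was used here, so every value below compares 1 LPS-pretreated culture condition with another. The labels do not say whether the 3 libraries of a hydrogel came from separate cultures, so the tests measure the spread between libraries, which may be technical.

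Mitochondria carry their own ribosome, which translates the few proteins encoded by mitochondrial DNA, all of them subunits of the respiratory chain and ATP synthase. Its ribosomal RNAs are transcribed inside the organelle, one for each subunit, whereas all of its proteins are encoded in the nucleus, made in the cytosol and imported. The large subunit forms the peptide bond and holds the exit tunnel; the small subunit binds the mRNA and decodes it. Some of the proteins have a counterpart in bacterial ribosomes and others are found in mitochondria alone. In macrophages, LPS is known to shift energy metabolism from respiration towards glycolysis.

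The libraries held 14374912 to 18346615 counts on MSA-DA and 16347934 to 18193026 on MSA-ZW. Of 8 macrophage markers, all were detected in each library, with a summed level of 2142 to 2182 FPKM (fragments scaled for transcript length and library size) on MSA-DA and 2572 to 2623 FPKM on MSA-ZW. Most of that difference lay in Lyz2, with a mean of 1339 FPKM on MSA-DA and 1743 FPKM on MSA-ZW, while the means of Cd68, Itgam, Ptprc and Adgre1 were higher on MSA-DA. Of 22 markers of 6 other cell types, 10 were at 0 in all 6 libraries; the sum for each of 5 types was at most 0.4 FPKM in any library, and that of the neutrophil list was 1.9 to 2.55 FPKM on MSA-DA and 1.83 to 1.98 FPKM on MSA-ZW, nearly all of it S100a8. The share of counts from mitochondrially encoded genes was 3.1 to 3.12% on MSA-DA and 2.73 to 2.78% on MSA-ZW. The share from the ribosomal-RNA-like locus Rn18s-rs5 was 0.132 to 0.141% on MSA-DA and 0.238 to 0.449% on MSA-ZW, highest in MSA-ZW replicate 2. Without the mitochondrially encoded genes and the ribosomal-RNA-like loci, the same 3 ribosomal protein genes were called as with them, Mrps6, Mrpl19 and Mrps23, and the median log2 differences were -0.025 for the large and -0.005 for the small subunit. The median over all tested genes was then -0.004, and 0.0008 with those genes and loci kept.

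The promoters of these genes are shown first, because genes of the nuclear-encoded mitochondrial machinery are known for binding sites of NRF1, of ETS factors such as GABPA, and of YY1. RefSeq promoter windows of 300 bases (250 before and 50 after an annotated start, mouse build GRCm38.p6) were found for 69 of the 78 genes. They were searched on both strands for GCATGCGC (the core of the NRF1 motif), CCGGAAGT (ETS) and AAGATGGC (YY1). At least 1 of the 3 was present in 29 of 69 genes (42.0%), compared with 9.91% of all 27025 genes with a window and 20.8% of the 8979 such genes that were expressed enough to be tested here. The ETS motif was found in 12 genes (17.4%, against 4.31% of all genes and 10.2% of tested genes), the YY1 motif in 12 (17.4%, against 3.19% and 5.81%) and the NRF1 core in 8 (11.6%, against 3.05% and 6.41%). Of 43 large-subunit genes 19 had a match (44.2%), and of 26 small-subunit genes 10 had one (38.5%). A match is a description of the letters in the window. No gene called different between the hydrogels had both a window and a match, so the 250 bases before the start are shown for the most abundant gene of each subunit with a match, Mrpl18 (chr17:12916092-12916341, minus strand) and Mrps18c (chr5:100798509-100798758, plus strand). Mrpl32 (chr13:14613038-14613287, minus strand) was added after its values were seen, for its several NRF1 cores. The sequences run 5′ to 3′ along the gene, with motif matches in capitals.
Mrpl18: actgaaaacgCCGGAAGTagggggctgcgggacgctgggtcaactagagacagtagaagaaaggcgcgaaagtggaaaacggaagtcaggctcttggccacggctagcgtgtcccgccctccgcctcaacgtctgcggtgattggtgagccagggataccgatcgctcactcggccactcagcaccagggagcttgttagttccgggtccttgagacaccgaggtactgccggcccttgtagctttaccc
Mrps18c: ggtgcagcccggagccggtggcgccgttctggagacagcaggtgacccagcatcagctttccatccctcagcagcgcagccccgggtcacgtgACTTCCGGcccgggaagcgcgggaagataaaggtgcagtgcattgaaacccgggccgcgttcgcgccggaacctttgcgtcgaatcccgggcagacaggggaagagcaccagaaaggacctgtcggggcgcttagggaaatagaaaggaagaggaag
Mrpl32: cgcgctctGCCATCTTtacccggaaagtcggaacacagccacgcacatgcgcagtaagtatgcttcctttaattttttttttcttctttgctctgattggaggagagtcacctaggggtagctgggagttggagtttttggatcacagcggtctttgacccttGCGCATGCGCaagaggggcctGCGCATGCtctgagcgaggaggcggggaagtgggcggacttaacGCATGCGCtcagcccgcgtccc
The Mrpl18 window holds the ETS motif on the forward strand, 240 bases before the start. The Mrps18c window holds it on the reverse strand, 157 bases before the start. In Mrpl32, the YY1 motif lies on the reverse strand and the NRF1 core was matched 4 times, of which a pair overlaps on opposite strands of the same 10 letters. The 29 tested genes with a match had a median log2 difference between hydrogels of 0.0002, and the 39 with a window but no match had one of -0.012. The 9 tested genes without a window had a median of -0.11. Of these groups 0, 2 and 1 genes were called in that order, beside 13.4% of all genes.

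All but 1 of the 78 genes passed the filter on low counts. Mean levels over the 6 libraries ran from 2.99 FPKM (Mrpl48) to 85.9 FPKM (Mrpl18) among these 77, with 30 genes between 10 and 20 FPKM, 23 between 20 and 40 FPKM and 5 above 40 FPKM. Mrpl18 had 89.5, 87.5 and 87.1 FPKM on MSA-DA, against 85.6, 79.7 and 85.8 FPKM on MSA-ZW. Mrpl12, whose protein forms the flexible stalk that recruits translation factors, had 63.9, 59.5 and 61.1 FPKM on MSA-DA and 59.5, 63.5 and 65.0 FPKM on MSA-ZW. Mrpl45, a mitochondrion-specific protein beside the exit tunnel that helps hold the ribosome at the inner membrane, had 44.9, 46.5 and 44.4 FPKM on MSA-DA and 44.5, 44.4 and 45.6 FPKM on MSA-ZW. Mrpl18 was higher in each MSA-DA library than in any MSA-ZW library, by little, while the groups overlapped for Mrpl12 and Mrpl45. In the GENCODE M21 annotation of GRCm38, Mrpl18 shares 141 exonic bases, 10.1% of its exonic length, with Tcp1 on the opposite strand. Tcp1 had a mean of 133 FPKM over the 6 libraries, and the part of its reads in the values of Mrpl18 was not tested.

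In the small subunit the most abundant were Mrps21, Mrps6 and Mrps18c, all with bacterial counterparts. Mrps21 had 55.2, 53.9 and 50.2 FPKM on MSA-DA and 48.4, 52.6 and 51.3 FPKM on MSA-ZW. Mrps18c had 36.7, 40.2 and 39.3 FPKM on MSA-DA and 38.3, 35.8 and 42.8 FPKM on MSA-ZW. The groups overlapped for both. Mrps18c is 1 of 3 paralogues descended from a single bacterial protein, and the other two were less abundant, at means of 16.6 ± 0.600 FPKM for Mrps18b and 10.9 ± 0.165 FPKM for Mrps18a on MSA-DA, and 16.8 ± 0.293 and 11.3 ± 0.0757 FPKM in that order on MSA-ZW (SD, n = 3 each).

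At the other end stood Mrpl53, which had 0.18, 1.10 and 0.64 FPKM on MSA-DA and 0.61, 0.08 and 0.42 FPKM on MSA-ZW. It was the 1 gene that failed the filter, and no difference was tested for it. In the GENCODE M21 annotation of GRCm38 it shares 88.0% of its exonic bases with Gm42688, a gene model on the same strand that had 33, 42 and 32 counts on MSA-DA and 36, 34 and 51 on MSA-ZW. The sources used here do not give how reads that fall on both were counted, so the low value of Mrpl53 is uncertain.

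**Figure D1:**
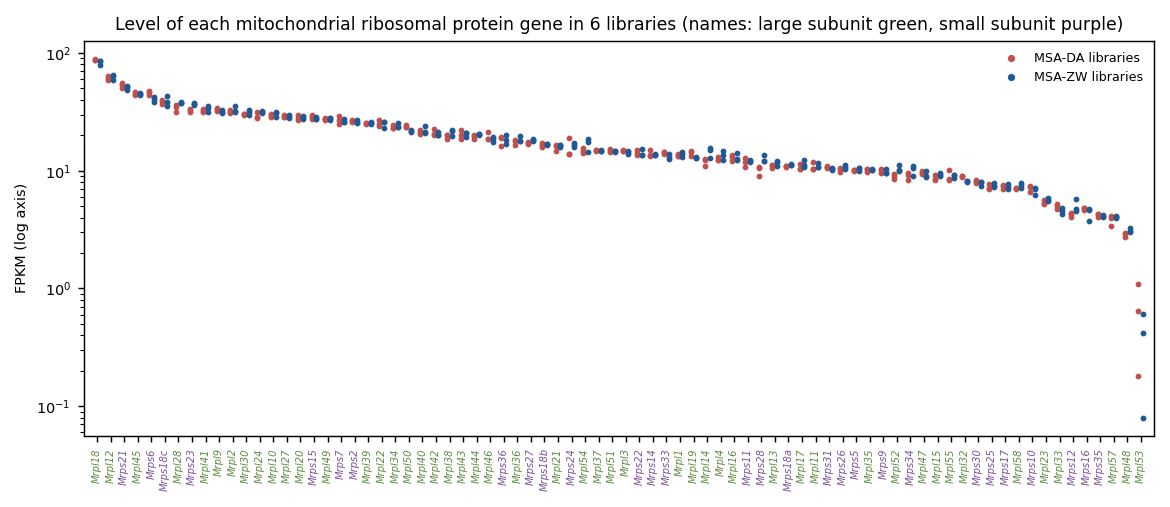
FPKM of the 78 mitochondrial ribosomal protein genes on a log axis, ordered by mean level, with 1 point per library (MSA-DA red, left of MSA-ZW blue). The points of the 2 hydrogels lie on or beside each other along the whole order from Mrpl18 to Mrpl48, and Mrpl53 stands apart at the low end.

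Setting MSA-DA against MSA-ZW asked whether these genes differed with the hydrogel under the cells. Few of them moved: 2 genes rose on MSA-DA, Mrps6 and Mrpl19, and 1 fell, Mrps23, each with an estimate of less than 1.2-fold, and 74 of 77 did not pass the test (edgeR quasi-likelihood test, Benjamini-Hochberg adjusted p below 0.05 over all 12467 genes tested). That is 3.9% of the tested members, where 13.4% of all genes were called (6.92% higher and 6.5% lower), and 16.4% of the 8034 genes within the same range of FPKM. A low share was also found for nuclear-encoded respiratory chain subunits, with 6.3% of 79 called. Among cytosolic ribosomal proteins 17.6% of 85 were called. The median log2 difference was -0.012 over the members and 0.0008 over all genes. In 16 of 77 members (20.8%) the libraries of the 2 hydrogels did not overlap, 8 in each direction, where 28.4% of all genes did not overlap. The standard error of the log2 difference had a median of 0.056, the 95% confidence interval lay within a 1.2-fold change in either direction for 64 of 77, and within 1.5-fold for all 77 tested. For the 13 others a change of 1.2-fold or somewhat more could not be set aside at this depth. The median coefficient of variation between libraries of a hydrogel was 3.98% on MSA-DA and 4.21% on MSA-ZW, and 4.78% and 5.28% over all tested genes.

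**Figure D2:**
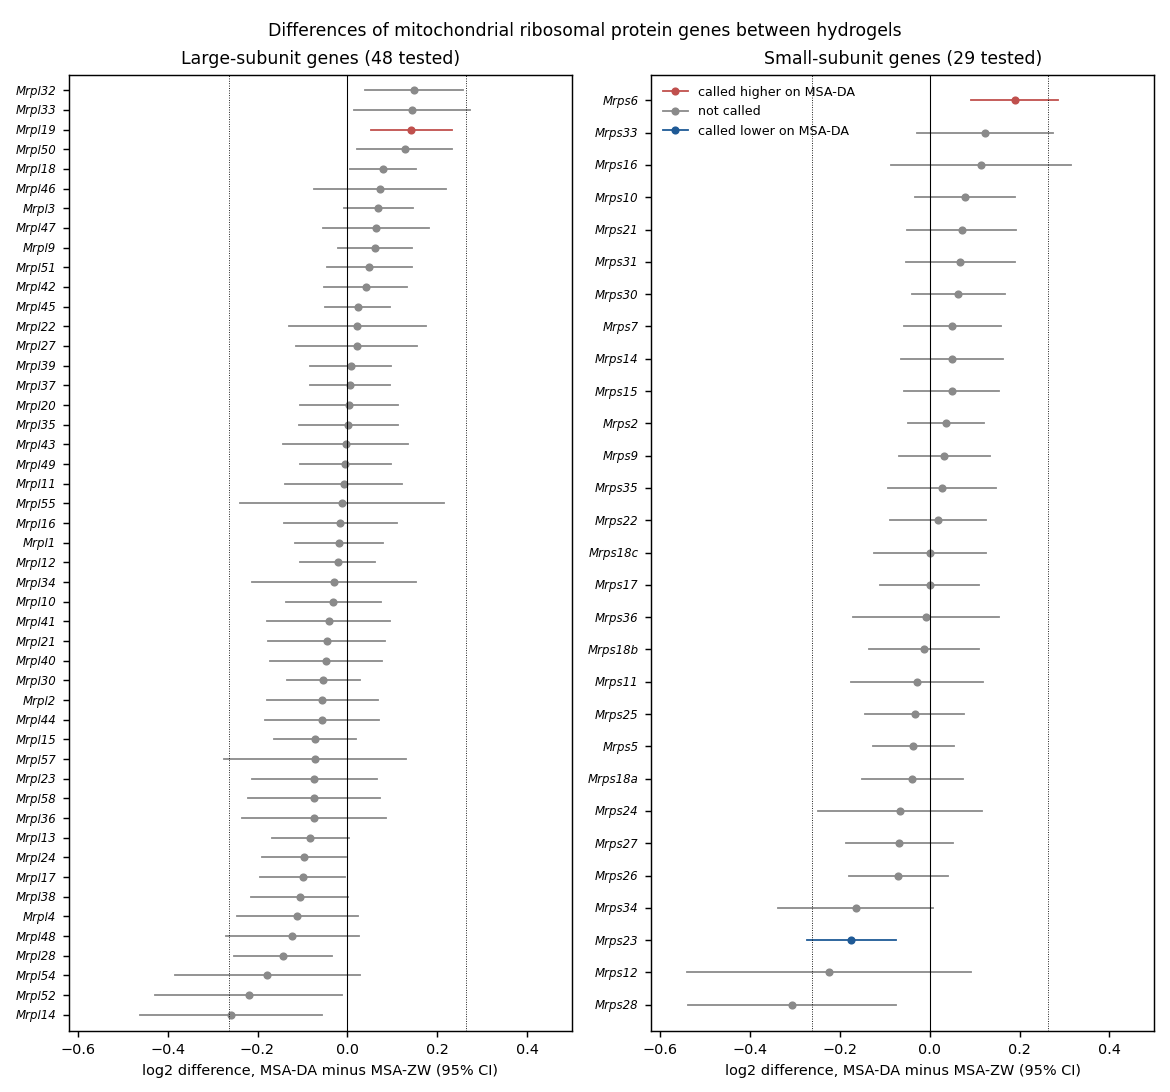
log2 difference (MSA-DA minus MSA-ZW) with its 95% confidence interval for the 48 large-subunit and 29 small-subunit genes tested; dotted lines mark 1.2-fold in either direction. The 3 called genes are coloured, and the estimate of Mrps28 alone lies beyond a dotted line.

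Mrps6, a small-subunit protein with a bacterial counterpart, had 46.8, 43.8 and 47.4 FPKM on MSA-DA and 38.4, 40.8 and 42.3 FPKM on MSA-ZW. Each MSA-DA library was above each MSA-ZW library. The log2 difference was 0.19 ± 0.05 (SE; 1.14-fold, 95% interval 1.07 to 1.22, adjusted p = 0.00581 by edgeR). The gene lies on chromosome 16 at 91855158 to 91909115 (plus strand, GRCm39, from the deposited table). Within that span and on the same strand lies Slc5a3, the sodium-coupled myo-inositol transporter, which rose by 0.31 ± 0.05 on the log2 scale (SE, adjusted p = 7.21e-06 by edgeR). In GENCODE M21 the exons of Mrps6 share 159 bases with those of Slc5a3, 10.4% of the exonic length of Mrps6. The part of shared reads in the difference of Mrps6 was not tested. Without MSA-DA replicate 3 or MSA-ZW replicate 1 its adjusted p was 0.0583 or 0.0546, the 2 alternatives of 14 under which it was not called (range 0.00116 to 0.0583).

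Mrpl19, a large-subunit protein with a bacterial counterpart, had 14.4, 14.6 and 13.3 FPKM on MSA-DA and 12.7, 13.0 and 12.8 FPKM on MSA-ZW. The groups did not overlap. The log2 difference was 0.14 ± 0.04 (SE; 1.10-fold, interval 1.04 to 1.17, adjusted p = 0.0276 by edgeR). It lies on chromosome 6 at 81934832 to 81942939 (minus strand, GRCm39), tail to tail with Gcfc2 on the opposite strand. In GENCODE M21 36.0% of its exonic bases are also exonic in Gcfc2, which encodes a splicing factor and had a log2 difference of 0.06 ± 0.08 (SE, adjusted p = 0.699). Reads of such a pair cannot be told apart where strand was not used, and the sources used here do not give the setting. The call of Mrpl19 was lost under 8 of 14 alternatives, among them DESeq2 (adjusted p = 0.110) and the fit corrected for GC content (0.0744), with a range of 0.0161 to 0.205.

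Mrps23, a small-subunit protein without a bacterial counterpart, had 33.1, 31.4 and 33.1 FPKM on MSA-DA and 36.8, 36.2 and 37.5 FPKM on MSA-ZW. Each MSA-DA library was below each MSA-ZW library. The log2 difference was -0.17 ± 0.05 (SE; 0.886-fold, interval 0.827 to 0.949, adjusted p = 0.0133 by edgeR). The gene lies on chromosome 11 at 88095214 to 88102333 (plus strand, GRCm39), where no other gene of the table overlaps it. It was not called by DESeq2 (0.0619) or without MSA-DA replicate 2 (0.0915), and was called under the other 12 alternatives (range 0.0108 to 0.0915). Of the 37 members that overlap no other gene in the table, Mrps23 was the 1 called (2.7%, beside 13.4% of all genes).

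Behind these 3 stood genes with differences of similar size that did not pass. Mrps28, the small-subunit gene with the lowest log2 difference, had 10.7, 10.6 and 9.05 FPKM on MSA-DA and 12.2, 13.6 and 12 FPKM on MSA-ZW. Its log2 difference of -0.31 ± 0.11 (SE, adjusted p = 0.0699 by edgeR) was the 1 estimate among the members beyond 1.2-fold, and limma on log2(FPKM + 1) called it (adjusted p = 0.0474, range over 13 alternatives 0.0474 to 0.271). Its groups did not overlap, and it had few counts, 112 to 174 per library. Mrpl14, the lowest of the large subunit, had 12.3, 12.6 and 11.1 FPKM on MSA-DA and 15.5, 12.9 and 14.9 FPKM on MSA-ZW. Its log2 difference was -0.26 ± 0.10 (SE, adjusted p = 0.0832), and without MSA-ZW replicate 2, the lowest of its group, the adjusted p was 0.0362 (range over 13 alternatives 0.0362 to 0.303). It shares 106 exonic bases in GENCODE M21 with Tmem63b on the opposite strand, a membrane channel gene that moved the other way, at 0.23 ± 0.07 (adjusted p = 0.0207). Mrpl32, which needs cleavage by a mitochondrial protease before it joins the large subunit, had the highest log2 difference of that subunit. It had 8.88, 9 and 9.1 FPKM on MSA-DA and 8.08, 8.23 and 8.18 FPKM on MSA-ZW. The groups did not overlap, and the log2 difference was 0.15 ± 0.05 (SE, adjusted p = 0.0617).

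**Figure D3:**
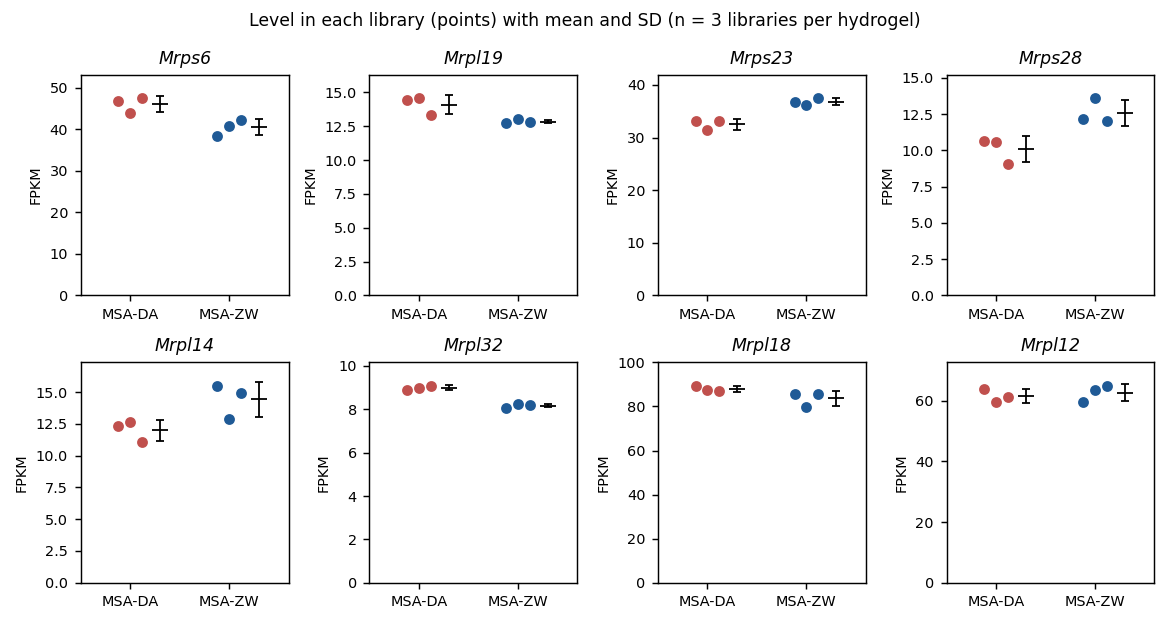
FPKM per library of 8 members (points; MSA-DA red, MSA-ZW blue), with mean and SD (n = 3) beside them, on axes from 0. Mrps6, Mrpl19, Mrpl32 and Mrpl18 are higher in every MSA-DA library, Mrps23, Mrps28 and Mrpl14 are lower in every MSA-DA library, and the groups overlap for Mrpl12.

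The large and the small subunit were then set side by side. Of 48 large-subunit genes tested 1 was called, higher (2.1%, beside 13.4% of all genes called). Among the 48, 18 had a positive and 30 a negative log2 difference, with a median of -0.020. Of 29 small-subunit genes 1 was called higher and 1 lower (6.9%), with 15 positive and 14 negative and a median of 0.0002. The median deviation of each library from the genes' means, on the log2(CPM + 1) scale (CPM, counts scaled to library size), had a pooled SD between libraries of 0.018 for the large and 0.019 for the small subunit. The 49 large-subunit genes summed to 1002, 979 and 989 FPKM on MSA-DA and 994, 994 and 1025 FPKM on MSA-ZW. The 29 small-subunit genes summed to 490, 496 and 480 FPKM on MSA-DA and 479, 489 and 497 FPKM on MSA-ZW. The ratio of large to small was 2.04, 1.98 and 2.06 on MSA-DA, with a mean of 2.03 ± 0.0453, and 2.07, 2.03 and 2.06 on MSA-ZW, with a mean of 2.06 ± 0.0211 (SD, n = 3 each). The groups overlapped, and the log2 difference of the ratio, -0.021, was smaller than the pooled SD between libraries, 0.025. Since a sum is led by its most abundant genes, the 5 highest members made up 19.4% of the total. The genes together took 0.355, 0.353 and 0.351% of all counts on MSA-DA and 0.351, 0.353 and 0.362% on MSA-ZW. In bulk libraries, a difference in how many cells express a gene and in how much each expresses cannot be told apart.

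**Figure D4:**
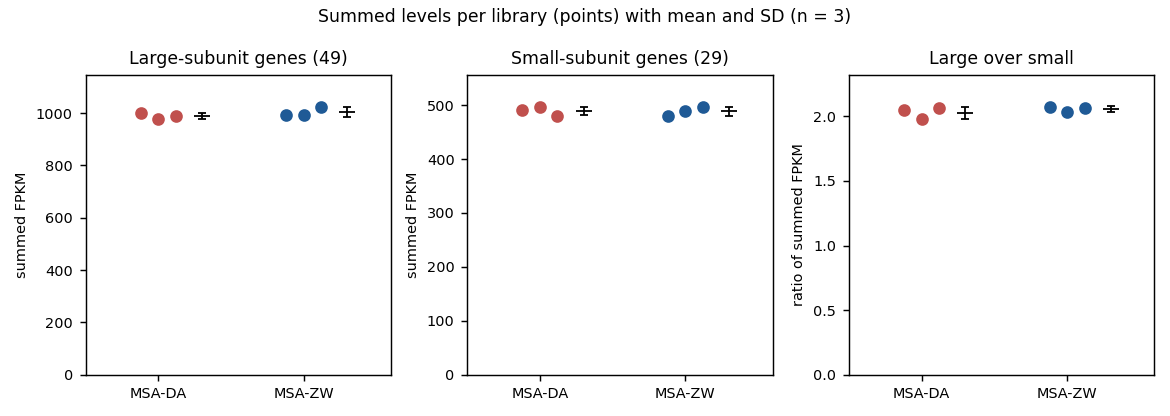
Summed FPKM of the large-subunit and small-subunit genes, and their ratio, in each library (points; MSA-DA red, MSA-ZW blue), with mean and SD (n = 3). The groups overlap in all 3 panels.

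The letter in a symbol does not always give the protein's place. Mrps30 and Mrps18a encode proteins that sit in the large subunit of the mammalian ribosome, and Mrps36 encodes a component of the 2-oxoglutarate dehydrogenase complex. Mrps30 had 7.84, 8.34 and 8.18 FPKM on MSA-DA and 7.40, 8.05 and 8.01 FPKM on MSA-ZW. Mrps18a had 10.9, 11.1 and 10.7 FPKM on MSA-DA and 11.2, 11.3 and 11.3 FPKM on MSA-ZW. Mrps36 had 16.4, 19.2 and 18.8 FPKM on MSA-DA and 16.9, 20.1 and 18.1 FPKM on MSA-ZW. Their log2 differences were 0.06, -0.04 and -0.01, none of them called, and the groups overlapped for Mrps30 and Mrps36 but not for Mrps18a. With genes placed by the ribosome, the medians were -0.020 for the large and 0.009 for the small subunit. Mrpl58, a peptidyl-tRNA hydrolase that frees stalled ribosomes and is also built into the large subunit, had 7.12, 7.05 and 7.14 FPKM on MSA-DA and 7.11, 7.80 and 7.62 FPKM on MSA-ZW, with a log2 difference of -0.07 ± 0.07 (SE, adjusted p = 0.576 by edgeR).

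The members were also divided by ancestry. Of 29 large-subunit genes with a bacterial counterpart 1 rose, Mrpl19 (3.4%, beside 13.4% of all genes called), with a median log2 difference of -0.022. Of 16 such small-subunit genes 1 rose, Mrps6 (6.25%), with a median of 0.034. That list held Mrps18c but not its paralogues Mrps18a and Mrps18b, which were counted with the remaining genes. Of these 31 remaining tested genes, Mrps36 left out, 1 fell, Mrps23 (3.2%), with a median of -0.014. Apart from the 2 paralogues they were listed as mitochondrion-specific. Another 5 genes encode proteins of the mitochondrial ribosome under other names. By edgeR 0 of 5 were called, with 1 at an unadjusted p below 0.05, and no alternative called any of them. DESeq2 gave no adjusted p for Gadd45gip1. Dap3, a GTP-binding small-subunit protein, had 17.2, 17.5 and 17.1 FPKM on MSA-DA and 18.01, 17.47 and 19.22 FPKM on MSA-ZW. Ptcd3, a small-subunit protein with RNA-binding repeats, had 27.3, 27.2 and 26.9 FPKM on MSA-DA and 25.7, 26.7 and 25.4 FPKM on MSA-ZW. Ptcd3 did not overlap between groups, at 0.07 ± 0.03 (SE, adjusted p = 0.135). Chchd1, Aurkaip1 and Gadd45gip1, also ribosome components, had log2 differences of 0.09, -0.04 and 0.01.

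The small differences were not spread evenly over base composition. Across the 77 tested members, Spearman's rho between the GC content of a gene's transcripts and its log2 difference was -0.43, and -0.32 across all genes, points that share the same 6 libraries. It was also -0.43 across the 7991 tested genes within the members' range of FPKM, -0.44 across nuclear-encoded respiratory chain subunits and -0.50 across cytosolic ribosomal proteins. In the 26 members with the highest GC content, 21 differences were negative, with a median of -0.05. In the 26 with the lowest, 15 were positive, with a median of 0.015. After a correction of the counts for GC content and length in each library, 4 members were called (10.7% of all genes were): Mrps6 (0.20, adjusted p = 0.00153) and Mrpl18 (0.11, 0.022) higher, Mrps23 (-0.15, 0.0324) and Mrpl13 (-0.13, 0.0363) lower. The medians of the subunits were then -0.007 for the large and 0.003 for the small. Mrpl13, named for this call and so after its values were seen, had 11.2, 11.2 and 10.5 FPKM on MSA-DA and 11.0, 12.01 and 11.97 FPKM on MSA-ZW, which overlap. By DESeq2 12.5% of the 7577 genes given an adjusted p were called, and by limma on log2(FPKM + 1) 8.33% of 10874. Among the members 1 and 3 were called.

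**Figure D5:**
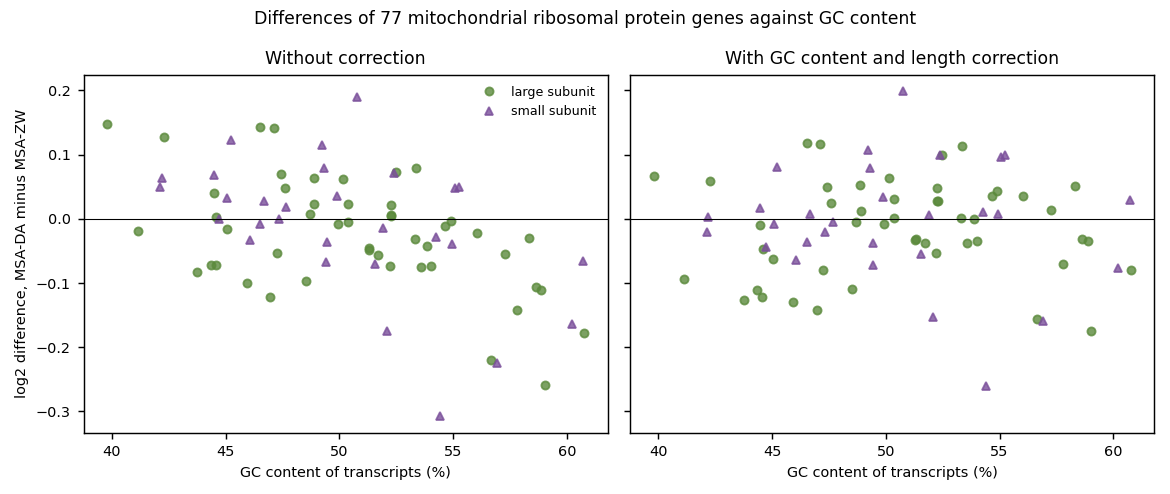
log2 difference (MSA-DA minus MSA-ZW) of the 77 tested members against the GC content of their transcripts in percent, without (left) and with (right) a correction for GC content and length; circles are large-subunit and triangles small-subunit genes. Without the correction 12 of 14 genes above 55% GC lie below 0.

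Genes that serve the mitochondrial ribosome were taken from lists by function. Of 25 genes for its assembly and the modification of its RNA, 1 rose, Mettl17 (4%, beside 13.4% of all genes called). Mettl17, a factor for assembly of the small subunit, had 4.56, 5.34 and 4.51 FPKM on MSA-DA and 3.57, 3.98 and 4.10 FPKM on MSA-ZW. Its groups did not overlap, and the log2 difference was 0.32 ± 0.09 (SE, adjusted p = 0.0139 by edgeR). It was not called by DESeq2 (0.0719), by limma on log2(FPKM + 1) (0.0825) or log2(FPKM + 0.1) (0.0814), or without MSA-DA replicate 2 (0.180) or MSA-ZW replicate 1 (0.0867), and ranged from 0.00423 to 0.180 over 14 alternatives. The median of that list was -0.015. Of 16 translation factors and regulators 2 rose (12.5%, beside 13.4% of all genes called), with a median of 0.018. Lrpprc, which stabilises mitochondrial mRNAs, had 23.8, 23.4 and 23.6 FPKM on MSA-DA and 22.6, 21.9 and 21.9 FPKM on MSA-ZW, at 0.10 ± 0.03 (SE, adjusted p = 0.0241). Guf1, a translational GTPase, had 6.27, 5.83 and 5.80 FPKM on MSA-DA and 5.28, 5.28 and 5.67 FPKM on MSA-ZW, at 0.14 ± 0.05 (SE, adjusted p = 0.0443). Neither passed in the fit corrected for GC content, with adjusted p-values of 0.0592 for Lrpprc and 0.314 for Guf1. Over 14 alternatives Lrpprc was called under 5 (range 0.0259 to 0.113) and Guf1 under 2 (range 0.0162 to 0.314).

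Of 17 mitochondrial aminoacyl-tRNA synthetases 1 rose and 1 fell (11.8%, beside 13.4% of all genes called). Hars2, which charges histidine tRNA, had 8.11, 8.34 and 8.14 FPKM on MSA-DA and 7.22, 7.29 and 7.15 FPKM on MSA-ZW, at 0.19 ± 0.06 (SE, adjusted p = 0.0315 by edgeR), and was not called under 9 of 14 alternatives (range 0.0326 to 0.140). Lars2, the leucine enzyme, had 16.6, 16.3 and 15.9 FPKM on MSA-DA and 46.6, 96.3 and 24.3 FPKM on MSA-ZW, at -1.77 ± 0.21 (SE, adjusted p = 2.44e-07). The MSA-ZW libraries spread over a wide range and stand in the same order as their share of counts from Rn18s-rs5, 0.269, 0.449 and 0.238%. The part of reads from ribosomal RNA in the value of Lars2 was not tested. Without MSA-ZW replicate 2 the log2 difference was -1.11. Lars2 missed the threshold in limma on log2(FPKM + 1), at an adjusted p of 0.0681, the highest of 14 alternatives, and on log2(FPKM + 0.1), at 0.0676. Of 12 regulators of mitochondrial transcription and biogenesis 10 were tested and 0 were called by edgeR, DESeq2 or limma on log2(FPKM + 1). Of all genes given an adjusted p, 13.4, 12.5 and 8.33% were called in that order. An unadjusted p below 0.05 was found for 3, 0 and 3 of the regulators. By edgeR that is 30%, beside 25.2% of all genes. The 10 tested regulators had a median log2 difference of -0.045 by edgeR, with 3 positive and 7 negative. Without MSA-ZW replicate 3 1 of these regulators was called, Esrra, a nuclear receptor that drives genes of respiration.

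The ribosomal RNAs of the organelle are not members but complete the particle. The large-subunit RNA, mt-Rnr2, had 260, 271 and 275 FPKM on MSA-DA and 201, 202 and 217 FPKM on MSA-ZW, at 0.39 ± 0.03 on the log2 scale (SE, adjusted p = 1.84e-11 by edgeR), and was called under all 13 alternatives that kept it. The small-subunit RNA, mt-Rnr1, had 316, 319 and 329 FPKM on MSA-DA and 298, 316 and 317 FPKM on MSA-ZW, at 0.06 ± 0.03 (SE, adjusted p = 0.255). The ratio of the 2 RNAs was 0.822, 0.850 and 0.838 on MSA-DA and 0.674, 0.640 and 0.683 on MSA-ZW, with means of 0.837 ± 0.0139 and 0.666 ± 0.0228 (SD, n = 3 each). The groups did not overlap, and an exact two-sided permutation test gave p = 0.1, the smallest that 3 against 3 libraries allow. That comparison was chosen after the values were seen. The 2 RNAs had a median of 277 FPKM, beside 897 FPKM over the 13 mitochondrially encoded protein genes. The part of library preparation in the levels of the 2 RNAs and in their ratio was not tested. After that correction of the counts the log2 differences were 0.26 for mt-Rnr2 and -0.07 for mt-Rnr1. The ratio of the summed protein genes of the subunits, given above, overlapped between hydrogels. Of 13 mitochondrially encoded protein genes, edgeR called 8 higher on MSA-DA and 0 lower (61.5%, beside 13.4% of all genes called). All 13 had a positive log2 difference, with a median of 0.18 and a range of 0.01 to 0.29. With the corrected counts 6 were called higher and 0 lower, with a median of 0.09. Whether the rise of mt-Rnr2 is separate from that of these 13 genes was not tested.

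The members lie on 17 chromosomes, with 11 genes on chromosome 11 and 8 on chromosome 17. A start within 1000 bases of the start of another tested gene on the opposite strand was found for 32 of 77 tested members (41.6%), compared with 18.4% of all tested genes; by the table's coordinates the spans of 14 of these 32 overlap their partner. Of these 32, 0 were called by edgeR, DESeq2 or limma on log2(FPKM + 1). Of all genes given an adjusted p, 13.4, 12.5 and 8.33% were called in that order. An unadjusted p below 0.05 was found for 4, 1 and 4 of the 32. By edgeR that is 12.5%, beside 25.2% of all genes. Among the 32, DESeq2 gave no adjusted p for Mrpl14, so its count of 0 does not cover all of them. The correction for GC content called Mrpl13 and Mrpl18 (10.7% of all genes were called), and leaving out MSA-ZW replicate 2 called Mrpl14. Of the partners Tmem63b rose. Mrpl46 and Mrps11, 1 gene of each subunit, are such partners of each other on chromosome 7. Mrpl46 had 18.8, 18.5 and 21.1 FPKM on MSA-DA and 17.7, 19.5 and 18.6 FPKM on MSA-ZW. Mrps11 had 12.8, 11.97 and 10.8 FPKM on MSA-DA and 12.1, 12.4 and 11.9 FPKM on MSA-ZW. Their log2 differences were 0.07 ± 0.07 and -0.03 ± 0.07 (SE), and both overlapped between groups.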

How the data were processed

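Counts per gene and FPKM were deposited by the authors in one table of 6 libraries. The tools HISAT2 2.2.1, cutadapt 1.9.1 and bcl2fastq 2.20.0.422 and the build GRCm39 are named in the submitters' processing notes; the sources used here do not give the counting program or its strand setting. FPKM recomputed from the counts and the deposited exonic lengths matched the deposited FPKM of every gene to about the 2 decimals given. From the counts, differences were tested with edgeR 4.0.16 (R 4.3.3): filterByExpr, TMM scaling, quasi-likelihood test of MSA-DA minus MSA-ZW over all genes that passed, Benjamini-Hochberg adjustment, threshold 0.05. Levels are FPKM. Promoter sequences and motif matches come from RefSeq windows; exon overlap and GC content come from GENCODE M21 (GRCm38), matched by Ensembl ID, and were not mixed with table coordinates. Alternatives were DESeq2 1.42.0, limma 3.58.1 with a trend on log2(FPKM + 1 or 0.1) for genes with at least 1 FPKM in 3 libraries, RLE scaling, no filter, a replicate block, each library left out, no mitochondrially encoded or ribosomal-RNA-like genes, and a loess correction (span 0.5) for GC content and length. Named genes are those called, the 3 most abundant, the highest and lowest difference per subunit, and a few with a known place. Members, lists and tests were chosen with earlier results of these data known. The subunit lists have no test of their own, since members are not replicates.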

Additional observations from a re-analysis of the deposited data

How the results depend on the processing

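The main fit called 2 members higher and 1 lower. DESeq2 called 1 higher and 0 lower (0 in the large and 1 in the small subunit), with 4 members at an unadjusted p below 0.05. It gave an adjusted p for 7577 genes, and among those without one were the members Mrpl14 and Mrps28, so its calls do not cover every member. Limma on log2(FPKM + 1) and on log2(FPKM + 0.1) each called 1 higher and 2 lower, 0 of them in the large subunit. The correction for GC content and length called 2 higher and 2 lower, 2 of them in the large subunit. RLE scaling, no filter on low counts, leaving out mitochondrially encoded and ribosomal-RNA-like genes, and the replicate block each called Mrps6, Mrpl19 and Mrps23. Leaving out 1 library at a time gave 0 to 2 higher and 0 to 2 lower, with 0 to 1 called in the large and 1 to 2 in the small subunit. Over members that overlap no other gene, an alternative chosen after seeing the data, 0 were higher and 1 lower, 0 in the large and 1 in the small subunit, and the median of the small subunit was 0.036 instead of 0.0002. No sign that the replicate numbers pair the libraries was seen, which does not exclude a pairing. Deviations of same-numbered libraries had correlations of 0.011, 0.017 and -0.003. The block called 1594 genes where the main fit called 1673, with 2 members higher and 1 lower. The medians of the large subunit stayed between -0.035 and -0.007 and the log2 difference of the large-to-small ratio between -0.033 and -0.002. The median of the small subunit ran from -0.018 to 0.036 and so changed sign. Without MSA-DA replicate 2 the medians were -0.017 for the large and -0.018 for the small subunit. Of 26 named genes, 14 were called neither in the main fit nor in any alternative that gave them an adjusted p. Depth limits the members with few counts, such as Mrps28 and Mrps12, whose intervals are the widest.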
